A study of Mus musculus with 12 samples.

Results

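The T cell receptors of CD8 single-positive (CD8SP) thymocytes were compared between mice lacking Chrna9 and wild-type (WT) mice. Chrna9 encodes the alpha 9 subunit of nicotinic acetylcholine receptors. The comparison used the 6 CD8SP libraries among the 12 of the series, chosen by their titles, with 3 libraries of Chrna9-/- and 3 of WT. Each library came from 330000 thymocytes that had been stained for CD4 and CD8 and sorted. The libraries were numbered 1 to 3 in each genotype, and the design text names 2 pairs of male mice and 1 pair of female mice without saying which number is which sex. Strain, age and the cells in which Chrna9 normally acts are not given by the labels, and Chrna9 itself is not measured by receptor libraries, so the deletion was not checked in these data. The other 6 libraries are CD4 single-positive (CD4SP) thymocytes of the same genotypes and are used below only where a CD8SP value is set against them.

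A T cell receptor joins an alpha and a beta chain. Each chain is made by cutting and rejoining a variable (V) and a joining (J) gene segment, with a diversity segment between them in the beta chain, and the junction forms the CDR3 loop that contacts the peptide held by an MHC molecule. In the alpha locus (TRA) the V and J segments lie in order on chromosome 14 and can be rejoined more than once, while the beta locus (TRB) lies on chromosome 6. Thymocytes that bind MHC class I are selected into the CD8 lineage, and those that bind self strongly are removed by negative selection, the subject of the series title. Segment usage therefore reads both recombination and selection.

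The sequences below are the CDR3 regions, 5′ to 3′, that the results turn on. The first set joins TRAV14 to TRAJ27, the only V and J combination that passed the test, and holds its most abundant CDR3s in CD8SP together with those most abundant in CD4SP. The second set holds the beta chain CDR3s with the smallest p, and the last is the alpha CDR3 of highest share that all 6 libraries held. Each is the most frequent nucleotide sequence of its translated CDR3, and the V name is its most frequent one; read counts given later are summed over all nucleotide sequences of the same translation. Capitals mark bases that the files assign to neither the V nor the J segment, so a sequence without capitals is read entirely from the 2 segments.
Join 1, TRAV14D-1 to TRAJ27: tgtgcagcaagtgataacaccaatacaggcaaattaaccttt
Join 2, TRAV14-2 to TRAJ27: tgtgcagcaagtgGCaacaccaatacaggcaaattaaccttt
Join 3, TRAV14D-1 to TRAJ27: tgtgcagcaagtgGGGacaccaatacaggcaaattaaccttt
Join 4, TRAV14-1 to TRAJ27: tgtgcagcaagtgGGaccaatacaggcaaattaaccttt
Join 5, TRAV14-1 to TRAJ27: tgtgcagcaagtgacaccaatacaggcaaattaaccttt
Join 6, TRAV14-2 to TRAJ27: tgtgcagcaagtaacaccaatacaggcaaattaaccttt
Beta 1, TRBV5 to TRBJ2-4: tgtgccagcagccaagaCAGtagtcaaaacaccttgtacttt
Beta 2, TRBV31 to TRBJ1-3: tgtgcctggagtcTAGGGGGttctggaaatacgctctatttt
Beta 3, TRBV5 to TRBJ2-7: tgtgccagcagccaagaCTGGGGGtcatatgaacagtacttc
Shared alpha, TRAV14N-3 to TRAJ22: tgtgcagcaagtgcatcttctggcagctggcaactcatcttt

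The CD8SP libraries held 23402 to 33885 productive TRA reads and 92648 to 134169 productive TRB reads, where productive means a covered CDR3 with no frame shift or stop codon. WT replicate 1 was the shallowest for both chains. Distinct productive clonotypes numbered 10896 to 15149 for TRA and 39140 to 50228 for TRB. The invariant NKT chain (TRAV11 to TRAJ18) made up 0.0897%, 0.0531% and 0.0610% of productive TRA reads in WT replicates 1 to 3 and 0.0571%, 0.0495% and 0.0737% in knockout. These ranges overlap and were far below the CD4SP means of 6.02% in WT and 7.39% in knockout. The MAIT chain (TRAV1 to TRAJ33) was between 0.0244% and 0.0464% in every CD8SP library. Joins to TRDJ, the J segments of delta chains, had 0 to 2 reads per library. Such joins alone do not define gamma delta T cells, so their presence or absence was not settled by this count. Levels of CD4 and CD8 are not measured here, so the sort itself could not be checked against them. Fewer cells carrying a receptor and less receptor RNA per cell cannot be told apart in these bulk libraries, and no label says whether the replicates came from separate litters or days.

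The alpha chains joining a TRAV14 segment to TRAJ27 rose in Chrna9-/- CD8SP thymocytes to 2.02-fold the WT share. The TRAV14 family holds several near-identical copies along the V region (for example TRAV14D-1, mm10 chr14:52855665-52856166, and TRAV14-1, chr14:53554057-53554558), and TRAJ27 lies at chr14:54192303-54192361. WT replicates 1 to 3 had 32, 73 and 37 reads, or 0.137%, 0.215% and 0.113% of productive TRA reads. Knockout replicates 1 to 3 had 109, 101 and 92 reads, or 0.327%, 0.313% and 0.295%. Every knockout library was above every WT library. The log2 fold change was 1.01 (SE 0.19, n = 3 per genotype), with an adjusted p of 0.000144 by the quasi-likelihood test of edgeR (Benjamini-Hochberg) over 454 V family and J pairs. It was the only pair called, 0.22% of those tested, against 23 at an unadjusted p under 0.05. Groups did not overlap for 55 pairs, or 12.1%. The call was lost when each clonotype was counted once (log2 fold change 0.73, edgeR adjusted p = 0.0935) and without replicate 3 of both genotypes (0.85, edgeR adjusted p = 0.341). It was also lost without WT replicate 3 alone (0.79, edgeR adjusted p = 0.0938), in a fit with no replicate block.

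**Figure D1:**
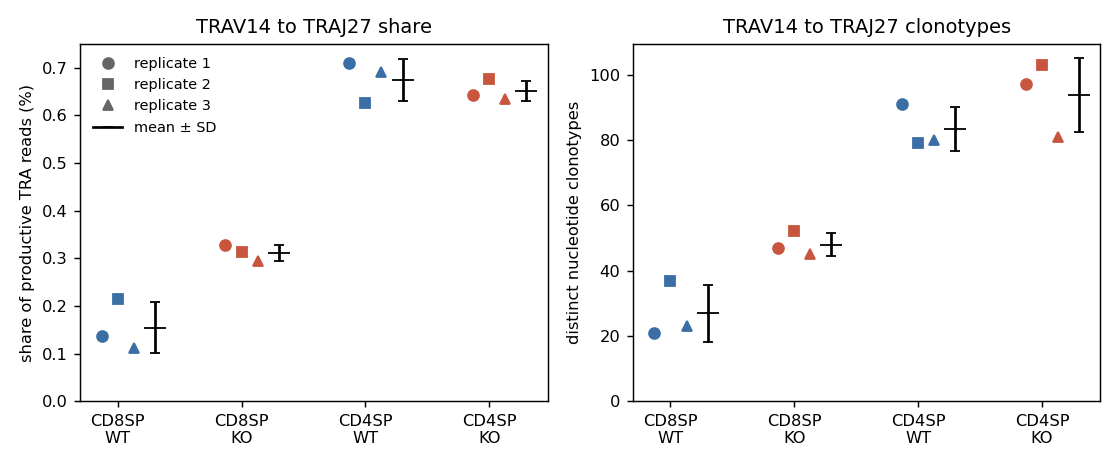
Left, share of productive TRA reads joining TRAV14 to TRAJ27 (%); right, distinct nucleotide clonotypes with that join, per library and group, with markers for the replicate number and bars for mean ± SD (n = 3). The 3 knockout CD8SP libraries sit between 0.295% and 0.327%, above the 3 WT CD8SP libraries at 0.113% to 0.215%, while the CD4SP groups overlap.

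The reads of the join lay in many clonotypes. Distinct nucleotide clonotypes of this join numbered 21, 37 and 23 in WT and 47, 52 and 45 in knockout, and the groups did not overlap. The most abundant one had 3 to 5 reads in a WT library and 6 to 8 in a knockout library. Over the 6 libraries there were 125 distinct amino acid CDR3s. Of these, 71 were seen only in knockout libraries, 32 only in WT and 22 in both, with 302 reads in all in knockout and 142 in WT. The join was picked for its higher reads in knockout, and more reads bring more distinct clonotypes. The numbers of clonotypes and CDR3s are therefore no separate evidence of the rise. They were not set beside those of other pairs. Join 1, whose printed sequence is read entirely from V and J, had 0, 6 and 0 reads in WT and 8, 3 and 12 in knockout. Join 2 was present in all 6 libraries, with 2 reads in each WT library and 4, 3 and 8 in knockout. Join 3 had 0, 4 and 3 reads in WT and 5, 4 and 2 in knockout. Join 4 went the other way, with 3, 9 and 2 reads in WT and 0, 2 and 0 in knockout. These counts are small, and they are given as a description.

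The join used several TRAV14 copies, whose near-identical sequences make single names uncertain. TRAV14D-1 with TRAJ27 had 33 reads over the 3 WT libraries and 87 over the 3 knockout libraries, and TRAV14-1 had 22 and 69. TRAV14N-3 had 20 and 61. All 3 were higher in knockout in every pair. TRAV14-2 had 33 and 47 and TRAV14D-2 had 18 and 31, each higher in knockout in 2 of 3 pairs. TRAV14-3 had 4 and 2, higher in 1 pair. TRAV14D-3-DV8 with TRAJ27 had 12 reads in WT and 5 in knockout, lower in each pair. Joins of the same segments to other partners were also counted. TRAV14 joined to the other J segments had a median log2 fold change of 0.09 over 41 pairs, with 27 above 0, beside 0.0097 over all 454 pairs. TRAJ27 joined to the other V families had a median of -0.0013 over 12 pairs, with 6 above 0. Nonproductive reads of the join, which carry a frame shift or stop codon, numbered 8, 10 and 7 in WT and 9, 3 and 4 in knockout, too few to compare.

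The same join in CD4SP libraries was more frequent, at 0.710%, 0.626% and 0.690% in WT and 0.642%, 0.676% and 0.635% in knockout, with overlapping groups and a log2 fold change of -0.05. The genotype effect in CD8SP exceeded that in CD4SP by 1.06 on the log2 scale, with an edgeR adjusted p of 0.0127 over 454 pairs. This call held in 8 of 17 alternatives. Leaving out reads with a tied best segment hit ended it (edgeR adjusted p = 0.705). So did leaving out 1-read clonotypes (0.289) and counting each clonotype once (0.128). With a block for each genotype and replicate number, shared by its CD4SP and CD8SP libraries, the difference was 1.06 and the edgeR adjusted p was 0.0524. Among the omissions the call was lost without replicate 1 (edgeR adjusted p = 0.182) or 3 (0.491) of both genotypes. It was also lost without WT replicate 1 (0.0655) or 3 (0.191), and without knockout replicate 1 (0.0622). Fits that left out a single library had no replicate block. CDR3s of 13 residues held 49.7% to 63.6% of the join's reads in CD4SP and 18.9% to 28.4% in CD8SP. CDR3s of 14 residues held 38.6% to 70.7% in CD8SP, with overlapping genotypes. Join 5, of 13 residues and again without added bases, had 192 reads over the CD4SP libraries and 15 over the CD8SP libraries.

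**Figure D2:**
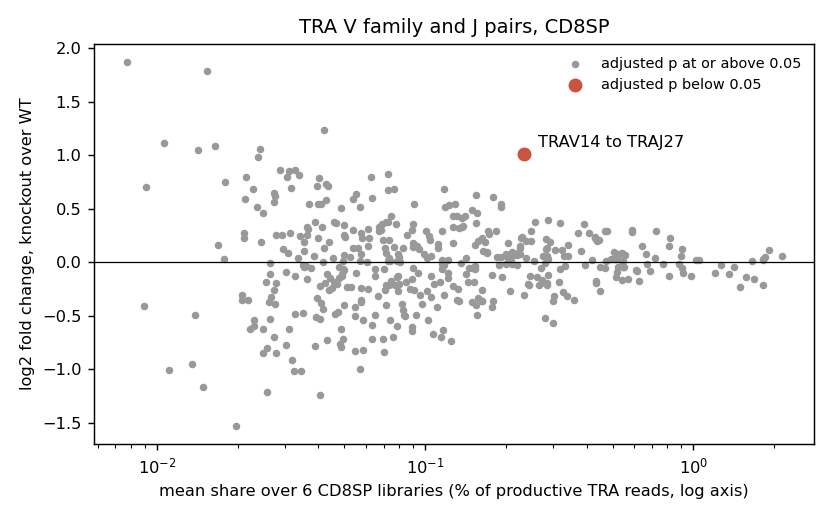
Log2 fold change of knockout over WT in CD8SP (y) against the mean share over the 6 CD8SP libraries (x, % of productive TRA reads, log axis) for 454 V family and J pairs. TRAV14 to TRAJ27, at 1.01, is the coloured point, and pairs of like share lie closer to 0.

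The next pairs by p did not pass. TRAV4 to TRAJ37 had 0.0299%, 0.0236% and 0.0213% in WT and 0.0601%, 0.0495% and 0.0673% in knockout (log2 fold change 1.24, SE 0.42, edgeR adjusted p = 0.654). TRAV13 to TRAJ9 had 0.393%, 0.348% and 0.335% in WT and 0.243%, 0.269% and 0.212% in knockout (log2 fold change -0.57, SE 0.20, edgeR adjusted p = 0.654). In both, the groups did not overlap.

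No single TRA segment passed, 0 of 125 (0%) by edgeR's quasi-likelihood test, with 7 at an unadjusted p under 0.05 and 13 (10.4%) whose groups did not overlap. DESeq2 called 0 as well, and edgeR with TMM factors called 1, TRAV14D-1. TRAV14D-1 had 1.68%, 1.87% and 1.81% in WT and 2.33%, 2.03% and 2.03% in knockout, every knockout library higher (log2 fold change 0.25, SE 0.08, edgeR adjusted p = 0.144; 0.0285 with TMM factors). TRAV14-2 had 1.47%, 1.46% and 1.63% in WT and 1.65%, 1.77% and 1.70% in knockout, again without overlap (log2 fold change 0.17, SE 0.08, edgeR adjusted p = 0.810). The smallest p values otherwise belonged to TRAV13N-1 (log2 fold change -0.24), TRAV4-4-DV10 (0.39), TRAV6D-7 (-0.14), TRAJ32 (-0.20), TRAJ7 (0.15) and TRAV7-6 (0.25), all with edgeR adjusted p of 0.810.

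Summed by family, TRAV14 segments made up 8.30%, 8.50% and 8.73% of TRA reads in WT and 9.76%, 8.99% and 9.18% in knockout. Of 7 TRAV14 segments tested, 6 were above 0 and 0 passed, with a median log2 fold change of 0.09 beside -0.0046 over all TRA segments. TRAV6 segments made up 17.6%, 17.8% and 17.7% in WT and 16.5%, 17.2% and 16.8% in knockout. Of 13 TRAV6 segments tested, 11 were below 0 and 0 passed, with a median of -0.10. The proximal-to-distal order of the J segments can show how often a locus was rejoined, because later joins use J segments farther from the V region. TRAJ1 to TRAJ21, the far end, summed to 32.6%, 32.6% and 33.1% in WT and 33.2%, 33.1% and 33.1% in knockout, with 9 of 14 segments above 0 and a median of 0.011. TRAV14, TRAV6 and TRAJ1 to TRAJ21 were the 3 of 16 lists (18.8%) whose summed shares did not overlap. TRAJ42 to TRAJ61, the near end, summed to 15.8% to 16.5% in WT and 14.7% to 16.8% in knockout. TRAV17 to TRAV21, V segments near the J region, summed to 2.18% to 2.49% and 1.98% to 2.30%. Both overlapped. TRAV17 to TRAV21 had a median log2 fold change of -0.43 over 4 segments tested, all below 0 and none passing.

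The libraries of the genotypes overlapped for each of the 6 most used TRAV and the 6 most used TRAJ segments. TRAV7-5, the most used V segment, had 12.12%, 11.25% and 11.01% in WT and 11.03%, 10.60% and 11.13% in knockout (log2 fold change -0.07, SE 0.05). TRAV16N had 10.5% to 11.5% in WT and 11.1% to 11.4% in knockout, and TRAV7-2 had 8.79% to 9.24% and 8.51% to 9.71%. TRAJ22, the most used J segment, had 8.98% to 9.64% in WT and 8.92% to 9.63% in knockout (log2 fold change -0.00063, 95% interval -0.09 to 0.09), and TRAJ30 had 5.83% to 6.13% and 5.84% to 6.10%. TRAV7D-5 and TRAV6-6, TRAJ26, TRAJ23, TRAJ31 and TRAJ12 had log2 fold changes from -0.07 to 0.06. The remaining TRAV segment of these 6 is among those of smallest p given above, and its log2 fold change was larger. For 92 of the 125 TRA segments, the 95% interval of the difference lay within 1.5-fold in either direction.

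Among TRB segments, 0 of 35 (0%) passed by edgeR's quasi-likelihood test, with 3 at an unadjusted p under 0.05, 0 by DESeq2, and 3 (8.57%) whose groups did not overlap. For 33 of the 35, the 95% interval lay within 1.5-fold. The closest were TRBV16, TRBV4 and TRBV5. TRBV16 (chr6:41151791-41152230) had 1.94%, 2.47% and 1.78% in WT and 2.53%, 2.32% and 2.12% in knockout (log2 fold change 0.18, SE 0.07, edgeR adjusted p = 0.361). TRBV4 had 0.992%, 1.18% and 0.991% in WT and 1.18%, 1.23% and 1.17% in knockout (0.18, SE 0.08, edgeR adjusted p = 0.361). TRBV5 had 10.8%, 10.1% and 10.8% in WT and 9.50%, 10.1% and 10.7% in knockout (-0.07, SE 0.03, edgeR adjusted p = 0.361). WT replicate 2 stood on the knockout side in all 3. Without replicate 2 of both genotypes, 5 segments passed: TRBV16, TRBV4 and TRBV12-1 higher, and TRBV5 and TRBV29 lower.

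Superantigens of endogenous retroviruses delete thymocytes by their TRBV segment, whatever the peptide, so the TRBV segments they act on are a reading of negative selection in strains that carry them. The 7 segments of this list summed to 37.2%, 39.1% and 38.8% of TRB reads in WT and 38.8%, 37.9% and 37.5% in knockout, with overlapping groups. None of the 7 passed, 4 were above 0, and their median log2 fold change was 0.016 beside 0.0026 over all TRB segments. TRBV12-1 ranged over 7.48% to 9.92% in WT and 8.44% to 9.63% in knockout, TRBV12-2 over 3.28% to 4.22% and 3.61% to 4.05%, and TRBV15 over 3.36% to 3.49% and 3.38% to 3.61%. TRBV17 ranged over 5.71% to 6.33% and 5.69% to 6.17%, TRBV26 over 2.54% to 2.97% and 2.57% to 2.79%, and TRBV29 over 10.79% to 11.98% and 10.54% to 11.61%. The TRBV13 family summed to 28.9%, 28.7% and 27.9% in WT and 29.4%, 28.7% and 29.3% in knockout. TRBV13-1, the most used TRBV segment, had 14.75%, 14.96% and 14.52% in WT and 15.34%, 15.13% and 15.25% in knockout, without overlap (log2 fold change 0.05, 95% interval -0.0079 to 0.10, edgeR adjusted p = 0.749). TRBV13-2 and TRBV13-3 overlapped between genotypes.

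**Figure D3:**
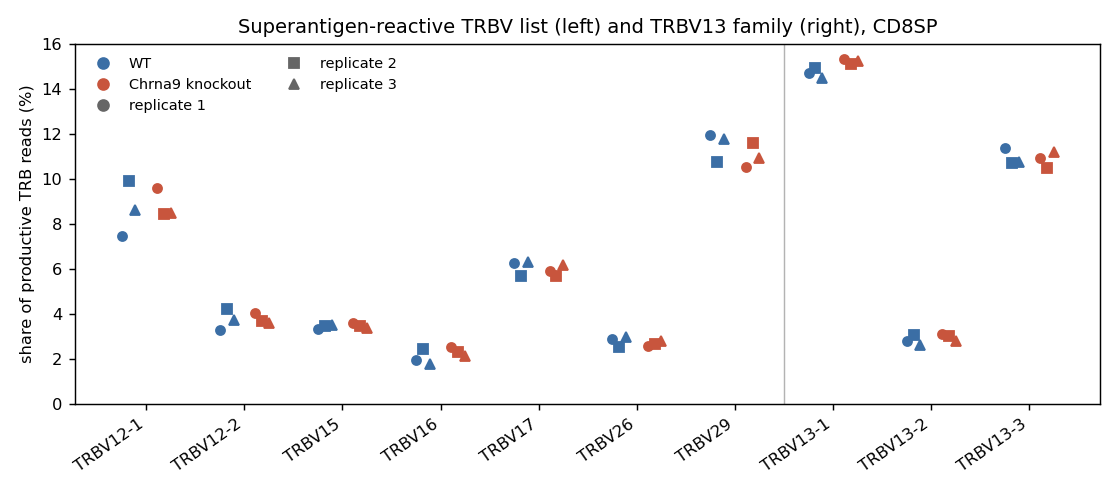
Share of productive TRB reads (%) for the 7 superantigen-reactive TRBV segments (left of the line) and the TRBV13 family (right), in WT and knockout CD8SP libraries, with a marker for each replicate number. The genotypes overlap for each segment except TRBV13-1, at 14.52% to 14.96% in WT and 15.13% to 15.34% in knockout.

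Of the beta J segments, the TRBJ1 cluster summed to 24.9% to 26.3% in WT and 25.5% to 26.3% in knockout. Of 249 TRB V and J pairs, 0 (0%) passed by edgeR's quasi-likelihood test, with 8 at an unadjusted p under 0.05, 0 by DESeq2 and 22 (8.84%) without overlap. TRBV26 to TRBJ1-2, with the smallest p, had 0.225%, 0.210% and 0.271% in WT and 0.179%, 0.166% and 0.183% in knockout (log2 fold change -0.41, SE 0.16, edgeR adjusted p = 0.951). TRBV15 to TRBJ1-6 (-0.74) and TRBV23 to TRBJ2-1 (0.59) followed.

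Alpha chain CDR3s of 15 residues fell slightly in knockout CD8SP. They made up 15.3%, 14.6% and 15.3% of TRA reads in WT and 14.4%, 14.3% and 14.3% in knockout, so the groups did not overlap. The log2 fold change was -0.07 (SE 0.02), with an adjusted p of 0.0297 by edgeR's quasi-likelihood test, the 1 call among 13 lengths (7.69%), against 3 (23.1%) without overlap. The call was lost without the replicate block (edgeR adjusted p = 0.351), with TMM factors (0.168), in DESeq2 (0.740), with each clonotype counted once (0.712), on the CD8SP libraries alone (0.327), with 1 replicate block over both lineages (0.281), and without replicate 1 (0.0543) or 3 (0.187) of both genotypes. It was also lost in each fit that left out a single CD8SP library (0.142 to 0.523). Those fits had no replicate block either, so they do not show the effect of the omission alone. The call held in 3 of 17 alternatives. CDR3s of 14 residues had 30.8%, 31.3% and 30.7% in WT and 31.0%, 31.7% and 31.8% in knockout (log2 fold change 0.03, edgeR adjusted p = 0.122). In CD4SP, 15-residue CDR3s went the other way, from 14.79%, 15.46% and 15.99% in WT to 16.04%, 16.49% and 17.51% in knockout. The difference between the 2 effects was -0.18 on the log2 scale (edgeR adjusted p = 0.000128; 0.0153 with the block for each genotype and replicate number). The invariant NKT chain has 15 residues and, as given above, was the larger in knockout among CD4SP libraries. Its part in the difference was not tested. None of 15 TRB lengths (0%) passed by edgeR, 0 had an unadjusted p under 0.05, and DESeq2 called 0.

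**Figure D4:**
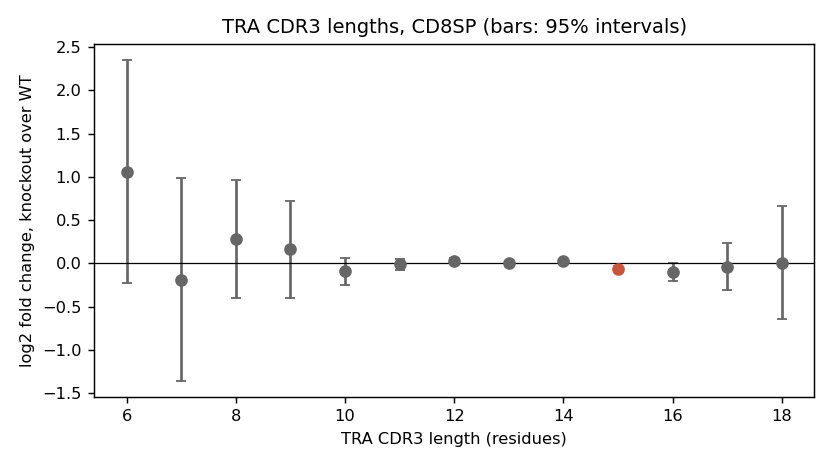
Log2 fold change of knockout over WT in CD8SP (y) for each TRA CDR3 length in residues (x), with 95% intervals. The coloured point at 15 residues lies at -0.07, and the shortest and longest CDR3s have wide intervals.

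Many CDR3s recur between mice. The most abundant clonotypes found in all 6 libraries had overlapping counts in the genotypes. The shared alpha CDR3 printed above, a TRAJ22 chain, had 281, 336 and 411 reads in WT and 365, 332 and 352 in knockout. These counts pool all its V segments, and TRAV14N-3 was the V name of 706 of the 2077 CD8SP reads. The printed sequence has no added bases. A TRAJ9 alpha CDR3 of 12 residues had 98, 116 and 174 in WT and 87, 130 and 131 in knockout, and a TRBJ2-7 beta CDR3 of 14 residues had 67, 114 and 130 in WT and 107, 107 and 65 in knockout. Together, the 764 alpha CDR3s found in all 6 libraries held 26.3% to 27.1% of TRA reads in WT and 25.9% to 27.4% in knockout, and the 1274 beta CDR3s 9.77% to 10.4% and 9.67% to 9.92% of TRB reads.

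No public clonotype, meaning an amino acid CDR3 found in at least 2 libraries with enough reads to test, passed: 0 of 521 alpha (0%) and 0 of 618 beta (0%) by edgeR's quasi-likelihood test, against 15 and 22 at an unadjusted p under 0.05 and 0 in each by DESeq2. Groups did not overlap for 55 alpha (10.6%) and 59 beta (9.55%) clonotypes. Beta 1, made from TRBV5 (chr6:41062359-41062803) and TRBJ2-4, had 10, 14 and 15 reads in WT and 0, 2 and 0 in knockout. The ratio of knockout to WT was 0.0499, with a 95% interval of 0.00583 to 0.193 for counting error only, and the edgeR adjusted p was 0.0521. The adjusted p was between 0.0133 and 1 over the alternatives, 5 of which passed. Beta 2, from TRBV31, had 5, 5 and 4 reads in WT and none in knockout; the 95% interval of the ratio of knockout to WT, for counting error only, reached up to 0.293 (edgeR adjusted p = 0.306). Beta 3 had 13, 25 and 9 reads in WT and 0, 7 and 3 in knockout (edgeR adjusted p = 0.802). The alpha chains with the smallest p were a TRAJ31 CDR3 of 13 residues, with 5, 5 and 3 reads in WT and 22, 15 and 11 in knockout, a TRAJ6 CDR3 of 16 residues, with 3, 0 and 2 in WT and 20, 13 and 20 in knockout, and a TRAJ15 CDR3 of 13 residues, with 2, 3 and 13 in WT and 2, 0 and 1 in knockout (edgeR adjusted p = 0.985 for each).

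A panel of 33 measures of each repertoire covered diversity, CDR3 length, junctions, CDR3 chemistry and marker chains. With 3 pairs, an exact sign-flip test cannot give a p below 0.25, and an exact permutation of labels cannot go below 0.1, so no measure could pass by these tests; the lowest Benjamini-Hochberg adjusted p values were 1 and 0.825. The methods' paired test, which could pass at this size, gave 1 of the 33 an unadjusted p under 0.05 and none after Benjamini-Hochberg adjustment. That measure was the mean distance of the used TRAV segments from the first TRAJ segment, at 881.4, 882.1 and 880.1 kb in WT and 883.2, 883.2 and 881.6 kb in knockout, higher in 3 of 3 pairs with overlapping groups (adjusted p = 0.675). Its sign depended on how clonotypes were counted. With each clonotype counted once or with 1-read clonotypes left out, knockout minus WT ran from -0.346 to 2.15 kb. Of the 33, 8 differed one way in all 3 pairs, 4 of them higher and 4 lower in knockout. For 4 measures (12.1%) the genotypes did not overlap.

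Delta V segments joined to alpha J segments gave one of these. A TRDV segment can rearrange to a TRAJ segment and form an alpha chain, and nearly all TRDV reads here were of that kind (99.3% to 100% per library). TRDV reads were 1.16%, 0.861% and 0.972% of alpha and delta reads in WT and 0.744%, 0.839% and 0.686% in knockout, lower in all 3 pairs (exact sign-flip p = 0.25; exact label permutation p = 0.1, both two-sided and the smallest possible). TRDV1, the main segment, made up 1.00%, 0.699% and 0.813% of alpha and delta reads in WT and 0.606%, 0.726% and 0.561% in knockout, lower in 2 pairs and higher in 1, with overlapping groups. TRDV2-2 made up 0.150%, 0.150% and 0.135% in WT and 0.122%, 0.102% and 0.108% in knockout, lower in all 3 pairs (exact sign-flip p = 0.25; exact label permutation p = 0.1), on 37 to 57 reads per library. The CD4SP means of all TRDV reads were also lower in knockout, at 1.03% in WT and 0.856% in knockout, lower in all 3 pairs. The segments differed between lineages. In CD4SP, TRDV1 had means of 0.990% in WT and 0.806% in knockout, lower in all 3 pairs. TRDV2-2 in CD4SP went the other way, at 0.0372% and 0.0411%, higher in 2 pairs. Of the TRDV reads in CD8SP, 74.1% to 81.0% joined TRAJ42 to TRAJ61, the J segments nearest the V region, beside 14.7% to 16.8% of the productive TRA reads.

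**Figure D5:**
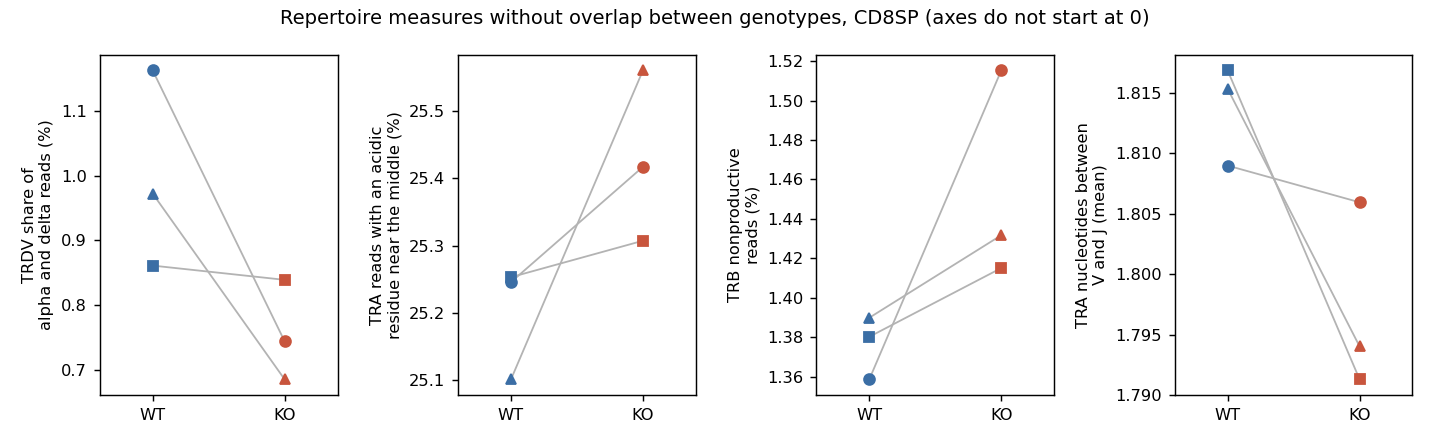
The 4 measures whose WT and knockout (KO) CD8SP libraries did not overlap, with lines joining libraries of the same replicate number; axes do not start at 0. TRDV reads range over 0.861% to 1.16% in WT and 0.686% to 0.839% in knockout, and the other 3 measures differ by small amounts.

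The other 3 differed by small amounts. Alpha CDR3s with an acidic residue within 2 positions of the middle made up 25.2%, 25.3% and 25.1% in WT and 25.4%, 25.3% and 25.6% in knockout (exact label permutation p = 0.1). Nonproductive TRB reads were 1.36%, 1.38% and 1.39% in WT and 1.52%, 1.42% and 1.43% in knockout (exact label permutation p = 0.1). The mean number of nucleotides between V and J ends in TRA was 1.81, 1.82 and 1.82 in WT and 1.81, 1.79 and 1.79 in knockout (exact label permutation p = 0.1).

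Diversity overlapped between genotypes. At 23402 TRA reads, WT libraries held 10896, 12594 and 11905 distinct clonotypes and knockout libraries 12649, 12268 and 11928. At 92648 TRB reads they held 39140, 43948 and 43563 in WT and 44378, 43313 and 42984 in knockout. In both chains WT replicate 1, the shallowest library, was the lowest. Hydrophobic residues at both CDR3 positions 6 and 7, a feature that has been associated with self-reactive receptors, were found in 0.945% to 1.02% of TRA reads in WT and 0.864% to 1.08% in knockout, and in 1.29% to 1.34% and 1.26% to 1.34% of TRB reads. Libraries of 1 genotype shared 8.37% to 9.75% of nucleotide TRA clonotypes, as a share of the geometric mean of their numbers, and libraries of different genotypes 8.82% to 10.4%. For TRB these were 2.36% to 2.55% and 2.21% to 2.57%.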

How the data were processed

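A SMARTer kit for mouse receptor chains and a MiSeq produced the reads, per the labels, and MiXCR assembled the clonotypes, per the design text; its version and filters: not given in the sources used here. Per the submitters' processing notes, the build was mm10. The deposited values are whole-number read counts per clonotype; the deposited fraction is that count over the file's total and served as a check. The files used here give no molecule counts, so intervals and floors cover counting error only, with reads amplified from 1 molecule not independent.

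Segments are best hits without the allele; 30.4% to 32.4% of CD8SP TRA reads had a tied best hit. Positions of 183 of 183 segments came from RefSeq's table of the same build. Counts were tested with edgeR 4.0.16 (R 4.3.3) by its quasi-likelihood test on all 12 libraries, with library size as productive reads of the chain, filterByExpr, the replicate number as a block within each lineage because the methods compare in pairs, and Benjamini-Hochberg adjustment at 0.05. DESeq2 1.42.0 was an alternative. The labels do not say whether CD4SP and CD8SP libraries of the same number share a mouse; the main fit treats them as independent, and an alternative gives them a shared block. Single measures used exact two-sided permutations, in Python 3.11.15 (scipy 1.17.1, pandas 2.3.3, numpy 2.4.6), and figures were drawn with matplotlib 3.10.9. Named features were those past the threshold, those of smallest p, the most used, and every superantigen and TRBV13 segment. The comparison and the lists were chosen with earlier results of these data known. P-values measure the spread between these libraries, which may be technical.

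On simulated counts, 44.4% of 9 TRA and 66.7% of 3 TRB segments raised by 25% (or lowered by the same fold) were recovered, and 100% of 8 TRA and of 2 TRB segments changed 1.5-fold. Of TRA pairs, 26.7% of those changed 1.5-fold and 63.3% of those changed 2-fold were recovered, and of public clonotypes changed 2-fold, 0% were. The simulation gave all features of a kind the same dispersion, had no pair effect and changed many features at once. The rates may therefore be too high for these libraries.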

Additional observations from a re-analysis of the deposited data

Results flagged for a closer look

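The genotype effect differed between CD8SP and CD4SP for 2 features by edgeR's test of the difference. For TRAV14 to TRAJ27 the effect in CD8SP exceeded that in CD4SP by 1.06 on the log2 scale, and edgeR's adjusted p was 0.0127; it ranged from 0.000325 to 0.705 over 17 alternatives, of which 8 passed. For alpha CDR3s of 15 residues the difference was -0.18, and 15 of 16 alternatives passed; the exception was counting each clonotype once (-0.06, edgeR adjusted p = 0.782).

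For 2 measures every CD8SP pair moved one way and every CD4SP pair the other, and the difference was not tested. Mean TRA CDR3 length was lower in knockout by 0.0222 residues in CD8SP (knockout minus WT -0.0222). The CD4SP means were 13.388 in WT and 13.405 in knockout. Alpha CDR3s with an acidic residue near the middle were higher by 0.228 percentage points in CD8SP, while the CD4SP means were 14.1% in WT and 13.7% in knockout.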

How the results depend on the processing

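Taken over all kinds of feature, the number of calls was the same under most alternatives, many of them with no call in any fit. For TRA CDR3 lengths it moved under most alternatives. It moved for TRA segments (1 with TMM factors), TRB public clonotypes (1 with TMM factors, 1 without 1-read clonotypes, 1 without the replicate block and 1 with 1 replicate block over both lineages), TRA pairs (0 with each clonotype counted once) and TRA CDR3 lengths (2 with no filter on low counts, and 0 with TMM factors, DESeq2, each clonotype counted once, no replicate block, the CD8SP libraries alone, and 1 replicate block over both lineages). Leaving out replicates gave 0 to 5 TRB segments, 0 to 2 TRA pairs, 0 to 1 TRB pairs, 0 to 1 TRA lengths and 0 to 1 TRB public clonotypes. Without replicate 1 of both genotypes 1 TRA length passed, but it was not that of 15 residues. Where a single library was left out, the fit had no replicate block. The pairing check gave correlations of 0.0031, -0.20 and 0.089 between same-numbered WT and knockout libraries over 106 TRA segments, and -0.53, -0.24 and 0.51 over 33 TRB segments, so these data do not show that the numbers pair the libraries. Same-numbered CD8SP and CD4SP libraries of a genotype correlated at 0.21 to 0.64 over TRB segments in all 6 cases and at -0.023 to 0.52 over TRA segments; a block shared by them, chosen after seeing the data, ended the call of the difference between lineages for TRAV14 to TRAJ27 (edgeR adjusted p = 0.0524) and kept that for 15-residue CDR3s (0.0153). The cause of each change was not tested. CDR3s named below are pooled over all V segments and carry their most frequent V name. TRAV3D-3 held 250 of 632 CD8SP reads, TRBV5 176 of 590, TRBV13-1 297 of 344 and TRBV14 154 of 314. The TRBV5 CDR3 of 14 residues below is the shared chain with 67, 114 and 130 WT reads, not Beta 3. The sign of the log2 fold change turned for features that had not passed. With each clonotype counted once it turned for TRAV7D-5 (-0.0087), TRAJ30 (0.022), TRAJ26 (-0.0060), TRBV14 (-0.0088), the TRAV3D-3 to TRAJ30 CDR3 of 12 residues (-0.031), the TRBV5 to TRBJ2-7 CDR3 of 14 residues (0.070) and the TRBV13-1 to TRBJ2-7 CDR3 of 12 residues (0.13). Without 1-read clonotypes it turned for TRAV6-6 (-0.019), TRAJ22 (0.0035) and TRBV12-2 (-0.0086). With 1 replicate block over both lineages it turned for TRAV6-6 (-3.81e-06) and the TRBV13-1 to TRBJ2-7 CDR3 of 12 residues (0.029). With TMM factors it turned for TRAJ22 (0.030), TRAJ30 (0.021), TRAJ12 (0.013) and TRBV14 (-0.011). With DESeq2 it turned for TRAJ22 (0.023), TRAJ30 (0.014), TRAJ12 (0.0055), TRBV14 (-0.013) and the TRBV13-1 to TRBJ2-7 CDR3 of 12 residues (0.021). With replicates left out in turn, the log2 fold changes ran from -0.037 to 0.46 for TRAV7-6, -0.0042 to 0.079 for TRAV16N, -0.046 to 0.051 for TRAV7-2, -0.030 to 0.10 for TRAV7D-5, -0.019 to 0.028 for TRAV6-6, -0.052 to 0.034 for TRAJ22, -0.032 to 0.012 for TRAJ30, -0.023 to 0.060 for TRAJ26, -0.067 to 0.036 for TRAJ12, -0.044 to 0.020 for TRBV13-3, -0.13 to 0.17 for TRBV12-1, -0.061 to 0.035 for TRBV14, -0.12 to 0.12 for TRBV12-2, -0.025 to 0.050 for TRBV15, -0.45 to 0.12 for the TRBV5 to TRBJ2-7 CDR3 of 14 residues, -0.39 to 0.29 for the TRBV13-1 to TRBJ2-7 CDR3 of 12 residues and -0.26 to 0.031 for the TRBV14 to TRBJ2-7 CDR3 of 13 residues.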
